A study of Mus musculus with 12 samples.

Results

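The genes described here are 7 subunits of the GABA-A receptor: the alpha subunit genes Gabra2, Gabra3, Gabra4 and Gabra5, the beta subunit genes Gabrb1 and Gabrb2, and the delta subunit gene Gabrd. They were taken by name from the mouse gene symbols joined to the RefSeq transcript entries of the read count files, and they make up 7 of 24209 genes obtained from 32850 entries. All 7 were measured in all 12 mice and all 7 passed the limit on low counts in both experiments. Each gene had exactly 1 entry, so that the value of the entry and the sum over the gene were the same reads: NM_008066 for Gabra2, NM_008067 for Gabra3, NM_010251 for Gabra4, NM_176942 for Gabra5, NM_008069 for Gabrb1, NM_008070 for Gabrb2 and NM_008072 for Gabrd.

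RNA was sequenced from the whole hippocampus of male C57BL/6 mice that had received an AAV5 vector into the hippocampus at 10 weeks of age, and the tissue was taken 10 weeks later. The vectors used the synapsin promoter, which is active in neurons, and all of them carried GFP. A sponge is a transcript with repeated imperfect binding sites that sequesters a miRNA family. In the miR-9 experiment 3 mice carried GFP followed by a sponge for miR-9 (miR-9sp, mice 17, 23 and 9) and 3 mice carried GFP alone (GFP Ctrl, mice 16, 2 and 8). In the miR-34 experiment 3 mice carried GFP followed by a sponge for miR-34 (miR-34sp, mice 13, 18 and 3) and 3 other mice carried GFP alone (GFP Ctrl, mice 10, 4 and 8). No untreated mice were analysed here, so the vector, GFP and the injection were common to all groups, and cells that did not take up the vector were part of every sample.

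The miR-9 experiment had libraries of 17279620 to 24428477 counted reads, and those of the miR-34 experiment were smaller, at 11029604 to 16934133. The rarest of the 7 genes, Gabrd, was covered by 234 to 698 reads per mouse, and the most covered, Gabrb2, by 6029 to 16675. Markers of hippocampal neurons were present in every library: the summed level of 6 markers of CA1 pyramidal cells ranged from 978 to 1358 CPM over the 4 groups (CPM, the reads of a gene scaled to a common library total within each experiment). The libraries also held markers of tissue next to the hippocampus. The summed level of 10 choroid plexus markers was 654 to 2402 CPM in the GFP Ctrl mice of the miR-34 experiment against 75.2 to 157 in the miR-34sp mice, and in the miR-9 experiment it was 128 to 748 against 55.5 to 889. In these bulk samples, fewer cells of a type and less RNA per cell cannot be told apart.

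GABA-A receptors are chloride channels that open when GABA, the main inhibitory transmitter of the adult brain, binds to them. Each channel is a ring of several subunits, most often alpha and beta subunits together with a gamma or a delta subunit, and the alpha subunit sets much of the pharmacology and the place of the receptor in the cell. In the hippocampus, receptors with the alpha2 subunit are concentrated at synapses, including those on the axon initial segment, whereas receptors with alpha5 are found largely outside synapses on pyramidal cell dendrites. Receptors with alpha4 and delta carry tonic inhibition in granule cells of the dentate gyrus.

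The sponges were directed at miRNAs that pair with messenger RNAs through their seed, bases 2 to 8 from the 5′ end. The mature sequences are shown because the seed decides which stretches of the subunit transcripts were searched. They are the RefSeq sequences of the GRCm38.p6 table, 5′ to 3′, with the seed in capitals, and miR-9-5p is encoded at 3 loci. miR-34a-5p and miR-34b-5p share 1 seed, and miR-34c-5p is the third member of that family.

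mmu-miR-9-5p: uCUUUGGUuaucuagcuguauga
mmu-miR-34a-5p: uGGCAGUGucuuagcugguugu
mmu-miR-34b-5p: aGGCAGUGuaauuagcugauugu

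The longest annotated 3′ UTR of each subunit gene (GENCODE M1, mouse genome NCBIM37, also called mm9) was searched on the sense strand for the heptamers complementary to these seeds, ACCAAAG for miR-9 and CACTGCC for miR-34. A heptamer followed by an A, ACCAAAGA or CACTGCCA, was counted as an 8mer, so each 8mer is also a heptamer. Of the 3′ UTRs of 19915 genes, 11.4% held the miR-9 heptamer and 3.7% its 8mer, and 14.0% held the miR-34 heptamer and 4.9% its 8mer. The 6 matches in the subunit genes are shown as windows of 30 bases on the strand of the transcript, with the match in capitals, because they separate the genes with a match from those without. A match is a description of the letters and not evidence of binding.

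Gabra3, miR-34 8mer: attgagccaaaCACTGCCAtttgtccagtt
Gabra4, miR-34 heptamer: cttcccattggCACTGCCcttaaccagaac
Gabrb1, miR-34 8mer: gcagttatctgCACTGCCAaatcttaagtc
Gabrb1, miR-34 heptamer: tgtcattatggCACTGCCccatctcgctcg
Gabrb2, miR-9 8mer: tattcctttcaACCAAAGActccagaatta
Gabrb2, miR-9 heptamer: cactgcttcacACCAAAGtttaaataattt

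All 6 matches lie in 3′ UTRs of these genes in the mm9 annotation. The Gabra3 match is at chrX:69679770-69679777 on the minus strand and the Gabra4 match at chr5:71962539-71962545 on the minus strand. The Gabrb1 matches are at chr5:72529128-72529135 and chr5:72529474-72529480 on the plus strand, and the Gabrb2 matches at chr11:42445048-42445055 and chr11:42445141-42445147 on the plus strand. The 3′ UTR of Gabrb2 is 5699 bases long, and 41.0% of the 507 3′ UTRs of similar length held the miR-9 heptamer. For the miR-34 heptamer the share among 3′ UTRs of similar length was 22.8% for Gabra3, 22.7% for Gabra4 and 18.8% for Gabrb1. Gabra2, Gabra5 and Gabrd held neither heptamer in 3′ UTRs of 745, 917 and 421 bases. Among 3′ UTRs of similar length, 6.1%, 7.9% and 4.0% held the miR-9 heptamer. For the miR-34 heptamer these shares were 9.1%, 10.9% and 5.4%. The counted entry of Gabrb1 is 1860 bases long whereas the annotated transcript searched is 3089 bases long. Part of the searched 3′ UTR of Gabrb1 may therefore lie outside the counted sequence. The Gabrb1 matches start at bases 1080 and 1426 of this 3′ UTR of 1580 bases, so both may lie outside the counted sequence.

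In the mm9 annotation 3 of the 7 genes are neighbours on chromosome 5. Gabra2 lies at chr5:71352296-71487088 on the minus strand, Gabra4 at chr5:71960973-72049547 on the minus strand and Gabrb1 at chr5:72091171-72529628 on the plus strand. The other genes are on separate chromosomes: Gabra3 at chrX:69678020-69902187 (minus), Gabra5 at chr7:64663060-64765379 (minus), Gabrb2 at chr11:42233259-42446092 (plus) and Gabrd at chr4:154759089-154772221 (minus). The count files hold no coordinates, so these places come from the annotation and not from the reads.

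To compare the levels of different subunits, CPM were divided by the length of the entry in kilobases. Gabra2, the alpha subunit of axon initial segment synapses, had the highest level of the 7 genes in both experiments, and Gabrd had the lowest. In the miR-9 experiment the levels were 148 ± 6.88 CPM per kilobase for Gabra2 (SD, n = 6 mice, sponge and GFP Ctrl together), 115 ± 10.5 for Gabra5 and 92.3 ± 3.77 for Gabrb2. The next genes were lower, at 49.4 ± 2.25 for Gabra4, 48.3 ± 4.12 for Gabra3 and 43.6 ± 2.93 for Gabrb1, and Gabrd was at 15.2 ± 1.37. Gabra4 and Gabra3 did not differ beyond their spread, since Gabra4 was above Gabra3 in 3 of 6 mice. Gabra3 and Gabrb1 overlapped too, with Gabra3 above Gabrb1 in 5 of 6 mice, and every other pair of neighbours in this order was separated in all 6 mice.

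In the miR-34 experiment the order was Gabra2 at 157 ± 6.31 CPM per kilobase (SD, n = 6), Gabra5 at 113 ± 4.69, Gabrb2 at 78.0 ± 4.28, Gabra4 at 45.8 ± 1.95, Gabrb1 at 42.3 ± 2.03, Gabra3 at 36.4 ± 2.33 and Gabrd at 14.7 ± 2.69. Within each of the 6 mice the order was the same, although the ranges of Gabra4 and Gabrb1 overlapped between mice, as did those of Gabrb1 and Gabra3. Gabra3 thus ranked above Gabrb1 in the miR-9 experiment and below it in the miR-34 experiment. The GFP Ctrl mice of the miR-9 experiment had 175 to 199 CPM of Gabra3, and those of the miR-34 experiment had 129 to 142. The experiments were normalized separately, so these values are given side by side and were not tested.

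**Figure D1:**
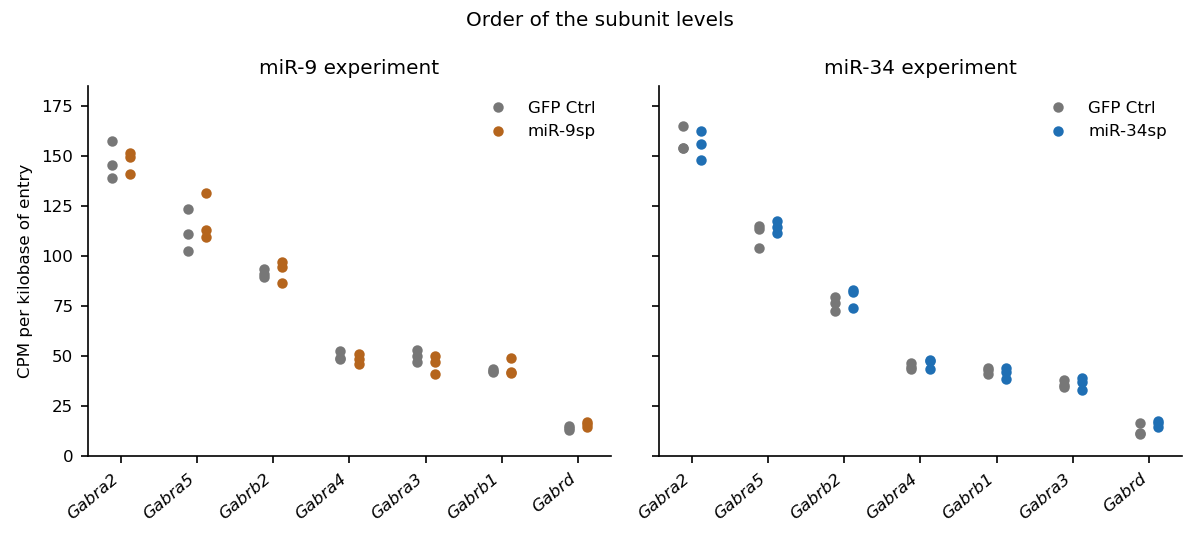
Level of each of the 7 subunit genes in each mouse, in CPM per kilobase of the RefSeq entry (vertical axis), for the miR-9 experiment (left) and the miR-34 experiment (right), with 1 point per mouse, GFP Ctrl in grey and sponge mice in colour. Genes are ordered by their mean over 6 mice, from Gabra2 (148 and 157) to Gabrd (15.2 and 14.7), and Gabra3 changes places with Gabrb1 between the experiments.

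The next question was whether either sponge altered the subunit messenger RNAs. In the study, probable miR-9 target genes were raised as a set after miR-9sp. For probable miR-34 target genes after miR-34sp, the study found a similar trend without significance. How far each miRNA family was inhibited was not tested here. None of the 7 genes passed the test in either experiment (edgeR quasi-likelihood test, adjusted p under 0.05 over all genes). In the miR-9 experiment this was 0 of 7 against 0.0% of all 13045 genes tested, and in the miR-34 experiment 0 of 7 against 0.064% of 12492. At an unadjusted p under 0.05 by edgeR, 1 of 7 genes was past the threshold in each experiment, Gabrd in both, where 4.73% of all genes were past it in the miR-9 experiment, with 2.47% of all genes past it and higher after the sponge, and 6.43% in the miR-34 experiment, with 2.71% past it and higher. DESeq2 also called 0 of the 7 genes in each experiment, and 2 and 36 genes over the whole tables. At an unadjusted p under 0.05, DESeq2 counted 0 of the 7 genes after miR-9sp and 1 after miR-34sp. The share of all genes at this DESeq2 threshold is not given here, so these counts have no background to be read against. No subunit separated the 3 sponge mice from the 3 GFP Ctrl mice in either experiment, where 10.2% and 11.6% of all genes did so. In the counts fitted per entry, 0 of the 7 entries passed, against 0.0% of 13439 entries in the miR-9 experiment and 0.0313% of 12787 in the miR-34 experiment.

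The fold changes of most subunits were measured within narrow intervals. Leaving Gabrd aside, the 95% intervals of the fold change of the other 6 genes all lay between 0.827 and 1.19 in the miR-9 experiment and between 0.897 and 1.13 in the miR-34 experiment. The median log2 fold change of the 7 genes was 0.02 after miR-9sp, with 4 genes higher and 3 lower, and 0.05 after miR-34sp, with 5 higher and 2 lower. Over all genes tested, the median was -0.0006 in the miR-9 experiment and -0.0007 in the miR-34 experiment, and 49.7% of genes were higher in each.

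**Figure D2:**
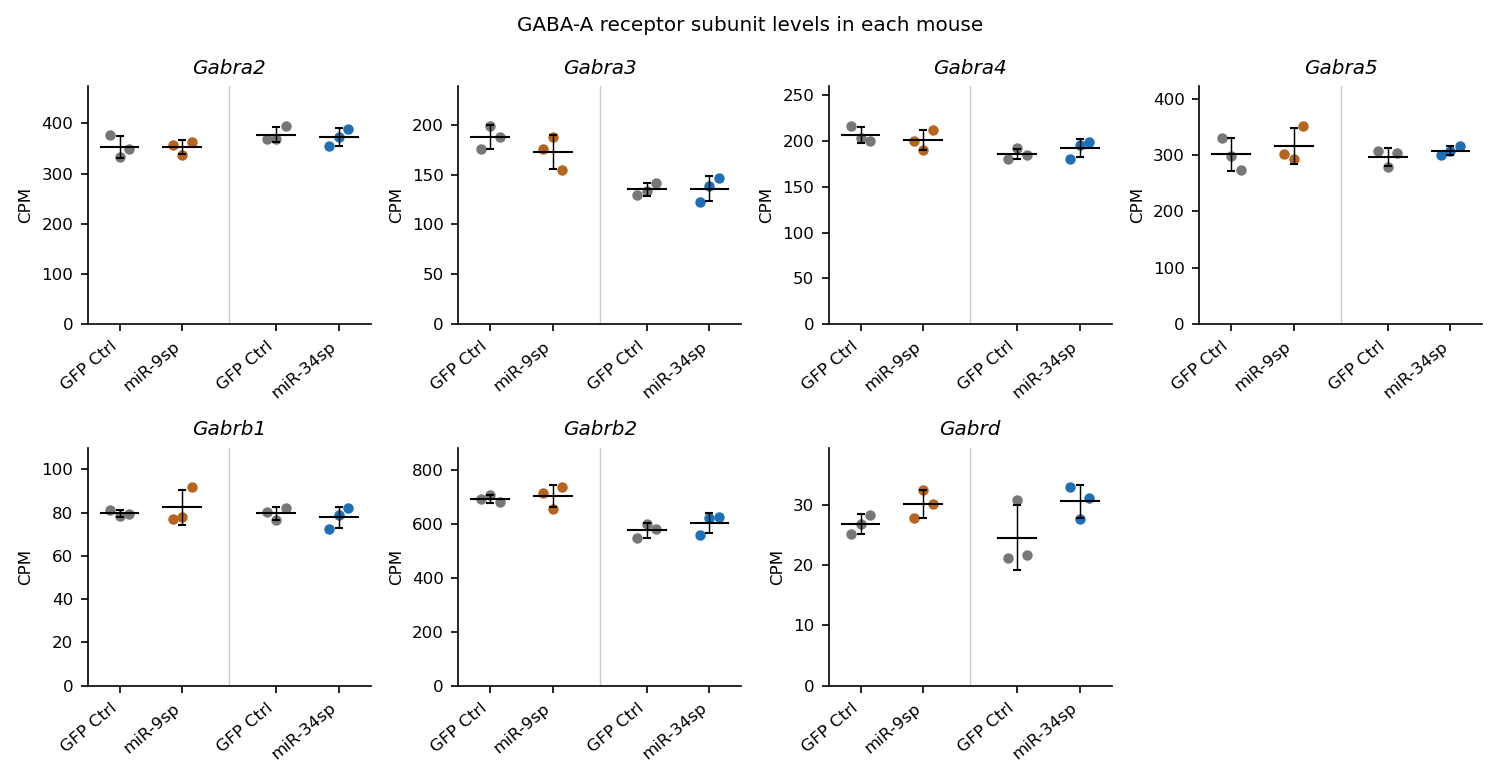
CPM of each subunit gene in each mouse (vertical axis from 0, with 1 panel per gene), with GFP Ctrl mice in grey, miR-9sp mice in orange and miR-34sp mice in blue. Horizontal lines show the mean and error bars the SD of 3 mice, the grey vertical line separates the experiments, and sponge and GFP Ctrl mice overlap in every panel and experiment.

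The alpha subunits are described first. Gabra2 had 337, 363 and 358 CPM in miR-9sp mice 17, 23 and 9, against 348, 377 and 333 in GFP Ctrl mice 16, 2 and 8. The groups covered nearly the same range and their means were both 353, a fold change of 1.00 (95% interval 0.922 to 1.08, unadjusted p = 0.999 by edgeR). With miR-34sp, Gabra2 had 373, 390 and 355 CPM in miR-34sp mice 13, 18 and 3, against 396, 369 and 368 in GFP Ctrl mice 10, 4 and 8. The lowest value was in a sponge mouse and the highest in a control, with a log2 fold change of -0.02 ± 0.04 (SE, edgeR adjusted p = 0.967).

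Gabra3, which encodes an alpha subunit more typical of brainstem and cortical neurons, was the lowest of the 4 alpha subunits in CPM. It had 188, 154 and 176 CPM in miR-9sp mice 17, 23 and 9 against 188, 175 and 199 in the GFP Ctrl mice 16, 2 and 8. Only miR-9sp mouse 23 fell below the controls, and the log2 fold change was -0.12 ± 0.07 (SE, edgeR adjusted p = 0.970), the lowest of the 7 genes in this experiment. Without mouse 23 it was -0.042 and that of Gabra4, at -0.081, was lower. In the miR-34 experiment Gabra3 had 139, 146 and 123 CPM in miR-34sp mice 13, 18 and 3. GFP Ctrl mice 10, 4 and 8 had 142, 129 and 134. Here the sponge mice held both the highest and the lowest value. The log2 fold change of Gabra3, whose 3′ UTR holds a miR-34 8mer, was 0.01 after miR-34sp (95% interval -0.13 to 0.14).

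Gabra4, the partner of delta in dentate granule cells, had 191, 212 and 200 CPM in miR-9sp mice 17, 23 and 9 against 200, 217 and 203 in GFP Ctrl mice 16, 2 and 8. The ranges overlapped and the log2 fold change was -0.04 ± 0.05 (SE, edgeR adjusted p = 0.971). Gabra4 in the other experiment had 196, 199 and 181 CPM in miR-34sp mice 13, 18 and 3, against 185, 180 and 192 in GFP Ctrl mice 10, 4 and 8. Mice 13 and 18 were above all controls and mouse 3 was not. With 1 miR-34 heptamer in its 3′ UTR, Gabra4 had a log2 fold change of 0.05 after miR-34sp (95% interval -0.05 to 0.15).

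Gabra5, the alpha subunit of extrasynaptic receptors on pyramidal cells, had 294, 352 and 302 CPM in miR-9sp mice 17, 23 and 9 against 274, 331 and 298 in GFP Ctrl mice 16, 2 and 8. The highest value was that of sponge mouse 23 and the lowest that of control mouse 16. The log2 fold change was 0.07 ± 0.08 (SE, edgeR adjusted p = 0.971), and without miR-9sp mouse 23 it was -0.014. Gabra5 after miR-34sp stood at 307, 315 and 299 CPM in miR-34sp mice 13, 18 and 3 against 303, 308 and 279 in GFP Ctrl mice 10, 4 and 8. Only control mouse 8 lay below the sponge mice, and the log2 fold change was 0.05 ± 0.04 (SE, edgeR adjusted p = 0.917).

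Beta subunits form the GABA binding site together with alpha subunits. Gabrb1 had 78.2, 91.7 and 77.2 CPM in miR-9sp mice 17, 23 and 9 against 79.3, 81.3 and 78.3 in GFP Ctrl mice 16, 2 and 8. Mouse 23 was above all controls and the other sponge mice were below them, so that the log2 fold change of 0.05 ± 0.06 (SE, edgeR adjusted p = 0.973) became -0.036 without mouse 23. After miR-34sp, Gabrb1 had 78.8, 82.1 and 72.3 CPM in miR-34sp mice 13, 18 and 3 against 81.9, 80.5 and 76.4 in GFP Ctrl mice 10, 4 and 8. The sponge mice spanned the range of the controls. Gabrb1 was the subunit with 2 miR-34 matches in the searched 3′ UTR, and both may lie outside the counted sequence, as given above. Its log2 fold change after miR-34sp was -0.04 (95% interval -0.16 to 0.09).

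Gabrb2 was the most read of the 7 genes. It had 655, 735 and 715 CPM in miR-9sp mice 17, 23 and 9 against 679, 690 and 707 in GFP Ctrl mice 16, 2 and 8. The sponge mice held both the lowest and the highest value. Gabrb2 was the only one of the 7 genes with miR-9 matches in its 3′ UTR, and its log2 fold change after miR-9sp was 0.02 (95% interval -0.09 to 0.13). With the miR-34 sponge it had 620, 626 and 560 CPM in miR-34sp mice 13, 18 and 3 against 579, 547 and 600 in GFP Ctrl mice 10, 4 and 8. Mice 13 and 18 were above the controls and mouse 3 was not, and the log2 fold change was 0.07 ± 0.05 (SE, edgeR adjusted p = 0.913).

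**Figure D3:**
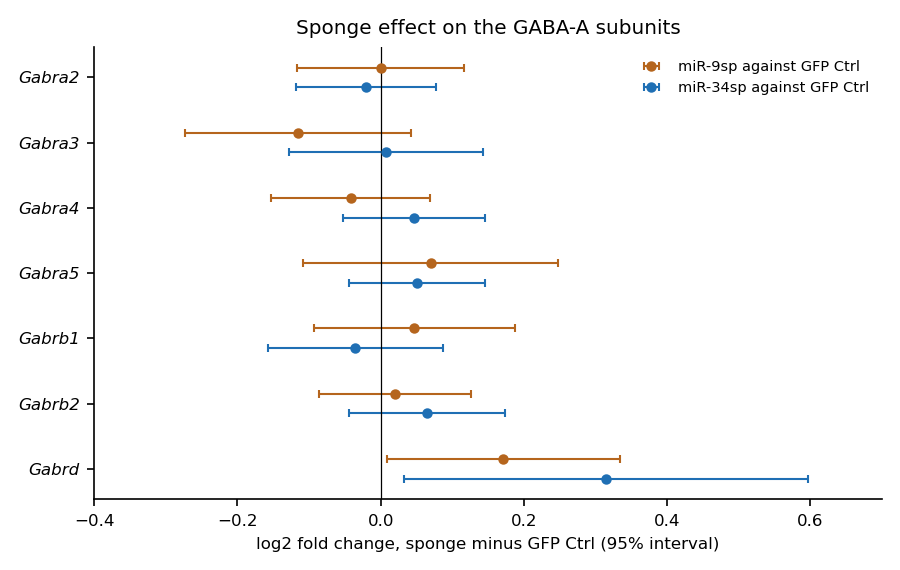
Log2 fold change of each subunit gene, sponge minus GFP Ctrl (horizontal axis), with its 95% interval derived from the edgeR test. The miR-9 experiment is in orange and the miR-34 experiment in blue. The intervals of 6 genes span 0 in both experiments, while those of Gabrd, at 0.17 and 0.31, lie just above 0 before adjustment for the number of genes tested.

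Gabrd encodes the delta subunit of extrasynaptic receptors and had the largest difference of the 7 genes in each experiment. In miR-9sp mice 17, 23 and 9 it had 32.5, 30.2 and 27.9 CPM, against 28.4, 25.1 and 26.9 in GFP Ctrl mice 16, 2 and 8. Mice 17 and 23 were above all controls and mouse 9 was between them. The fold change was 1.13 (95% interval 1.01 to 1.26, log2 0.17 ± 0.07 SE), with an unadjusted p of 0.0408 and an adjusted p of 0.970 by edgeR. Of the 13045 genes, 499 had a smaller unadjusted p than Gabrd.

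In miR-34sp mice 13, 18 and 3 Gabrd had 27.7, 31.2 and 33.0 CPM, against 21.7, 21.2 and 30.8 in GFP Ctrl mice 10, 4 and 8. Control mouse 8 stood apart from the other controls and lay within the range of the sponge mice. The fold change was 1.24 (95% interval 1.02 to 1.51, log2 0.31 ± 0.13 SE), with an unadjusted p of 0.0320 and an adjusted p of 0.723 by edgeR. Without GFP Ctrl mouse 8 the log2 fold change was 0.51 and the edgeR adjusted p was 0.147. Over all alternatives tried, the adjusted p of Gabrd was 0.147 or more for miR-34sp and 0.843 or more for miR-9sp, and at most 0.9999. No miR-9 or miR-34 heptamer was found in the searched 3′ UTR of Gabrd, which is 421 bases long. Of 3′ UTRs of similar length, 4.0% held the miR-9 heptamer and 5.4% the miR-34 heptamer.

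Markers of the dentate granule cells, in which delta is abundant, had fold changes above 1 in most cases, although in the miR-9 experiment only 1 of 8 and in the miR-34 experiment 0 of 8 had all 3 sponge mice above all controls. The 8 granule cell markers of the list had a median log2 fold change of 0.27 after miR-9sp, with 7 of 8 higher, and of 0.17 after miR-34sp, with 5 of 8 higher. Of these markers, 0 passed the adjusted threshold of edgeR in either experiment, and at an unadjusted p under 0.05 there was 1 after miR-9sp and 3 after miR-34sp. Their summed level was 320, 485 and 301 CPM in miR-9sp mice 17, 23 and 9 against 274, 399 and 259 in GFP Ctrl mice 16, 2 and 8. For the miR-34 experiment the sum was 401, 440 and 457 in miR-34sp mice 13, 18 and 3 against 384, 343 and 453 in GFP Ctrl mice 10, 4 and 8. Control mouse 8, the control with the most Gabrd, also had the most granule cell marker reads of the controls. In that experiment the mice fell into nearly the same order for Gabrd as for the granule cell sum, whereas in the miR-9 experiment control mouse 2 had the sum next to the highest and the lowest Gabrd of the 6 mice, and mouse 23 had the highest sum and not the highest Gabrd.

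Control mouse 8 of the miR-34 experiment differed from the other controls in markers of other regions too. Its summed thalamus markers were 113 CPM, against 64.7 and 65.0 in control mice 10 and 4, and its summed striatum markers were 146, against 91.7 and 103. No thalamus or striatum marker passed the adjusted threshold of edgeR in either experiment, and DESeq2 called 1 striatum marker after miR-34sp. At an unadjusted p under 0.05 by edgeR there was 1 thalamus marker in each experiment, and 3 striatum markers after miR-34sp. The 8 choroid plexus markers tested were lower in all cases after miR-34sp, with a median log2 fold change of -3.62, 3 past the adjusted threshold by edgeR and 6 by DESeq2. Of 7 markers of CA2 and CA3 pyramidal cells, 4 were tested in the miR-34 experiment and 5 in the miR-9 experiment. Their median log2 fold change was -0.24 after miR-34sp and 0.06 after miR-9sp. After miR-34sp, 1 of them passed by DESeq2 and 0 by edgeR. At an unadjusted p under 0.05 by edgeR, 2 were lower after miR-34sp and 2 higher after miR-9sp. Their sum was 151 to 164 CPM in miR-34sp mice against 181 to 191 in GFP Ctrl mice. In the miR-9 experiment it was 145 to 191 against 128 to 151. The part of these differences in the subunit values was not tested.

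Of the remaining lists, 5 of 6 CA1 pyramidal cell markers were higher after miR-34sp and 4 of 6 after miR-9sp, with median log2 fold changes of 0.05 and 0.07. Interneuron markers, among them Lhx6 and Htr3a listed at 0 reads in all mice, had medians of 0.02 after miR-34sp and -0.02 after miR-9sp. The medians after miR-34sp and miR-9sp were -0.05 and -0.02 for astrocytes, -0.0002 and -0.05 for microglia, 0.07 and -0.09 for oligodendrocytes and -0.03 and 0.05 for endothelium. Of the genes in these 6 lists, 0 passed the adjusted threshold in either experiment by edgeR or DESeq2.

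The effects of the sponges were also compared with each other in a single model of all 12 mice. Of the 7 genes, 0 passed for a difference between the effects (edgeR, adjusted p under 0.05), against 0.0% of 12835 genes, and 0 of 7 had an unadjusted p under 0.05, against 6.1% of all genes. For Gabrd the effect of miR-9sp minus that of miR-34sp was -0.14 on the log2 scale (95% interval -0.49 to 0.20, edgeR unadjusted p = 0.396). The interval was narrowest for Gabra4, at -0.09 (95% interval -0.23 to 0.06).

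Because the alpha subunits take the same place in the receptor, the share of each in the sum of Gabra2, Gabra3, Gabra4 and Gabra5, in reads per kilobase, was computed for each mouse. This share does not depend on the library size, but it covers only these 4 alpha subunit genes. Gabra2 made up 40.9% ± 1.33 in the GFP Ctrl mice (SD, n = 3) and 40.9% ± 0.74 in the miR-9sp mice. Gabra5 followed with 31.2% ± 1.51 and 32.7% ± 1.96. Gabra3 had 14.0% ± 1.46 and 12.9% ± 1.77, and Gabra4 had 13.9% ± 0.11 and 13.5% ± 0.18.

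In the miR-34 experiment Gabra2 made up 45.1% ± 0.67 in the GFP Ctrl mice and 44.0% ± 0.17 in the miR-34sp mice (SD, n = 3). Gabra5 had 31.7% ± 1.26 and 32.5% ± 0.64, Gabra4 12.9% ± 0.69 and 13.2% ± 0.17, and Gabra3 10.4% ± 0.32 and 10.3% ± 0.47. The spread between control mice was larger than that between miR-34sp mice for Gabra2, Gabra4 and Gabra5.

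Of these 8 comparisons of a share, 2 gave groups that did not overlap. The share of Gabra4 was 13.3% to 13.7% in the miR-9sp mice and 13.8% to 14.0% in the GFP Ctrl mice and sponge minus GFP Ctrl was -0.42 percentage points. The share of Gabra2 was 43.9% to 44.2% in the miR-34sp mice and 44.4% to 45.7% in the GFP Ctrl mice and sponge minus GFP Ctrl was -1.07 percentage points. Each had p = 0.1 in the exact two-sided permutation test, the smallest that 3 mice against 3 can give, and 0.4 after adjustment over the 8 comparisons. The other 6 shares had exact permutation p-values of 0.4 to 1.

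**Figure D4:**
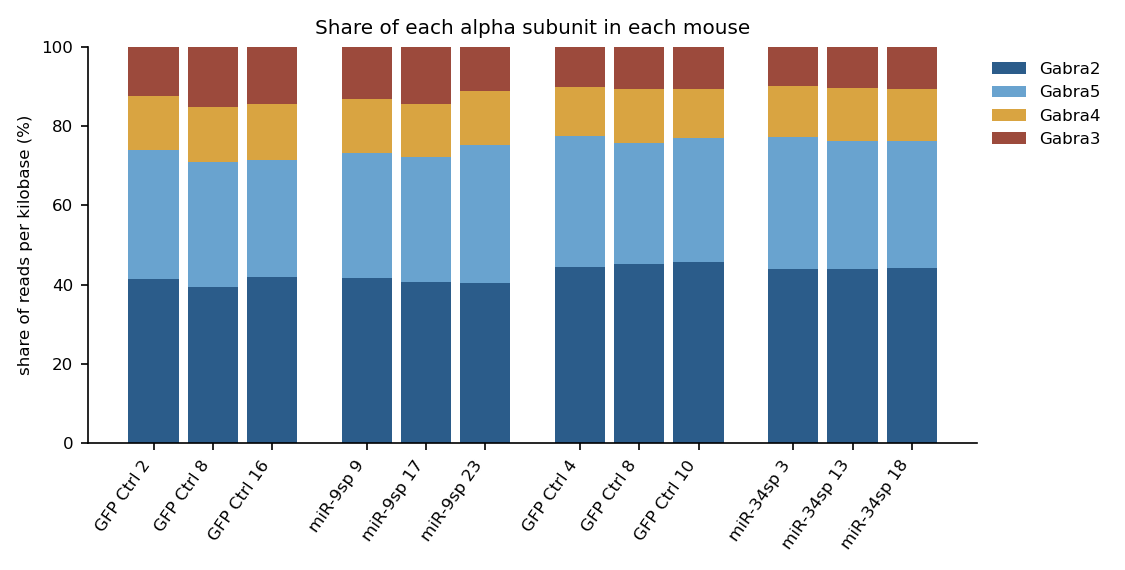
Share of Gabra2, Gabra5, Gabra4 and Gabra3 in the summed reads per kilobase of these 4 alpha subunit genes (vertical axis, percent), with 1 stacked bar for each of the 12 mice. Gabra2 takes 39.4% to 45.7% of the bar and Gabra3 9.77% to 15.1% over all mice, and the group means of an experiment differ by at most 1.52 percentage points, for Gabra5 in the miR-9 experiment (0.39 without miR-9sp mouse 23).

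The variation between mice was shared by some subunits. With the values centred within each experiment, the correlation over the 12 mice was highest for Gabra4 and Gabrb2 (Pearson r = 0.80) and for Gabra5 and Gabrb1 (r = 0.71), and lowest for Gabra3 and Gabra5 (r = -0.50). These 12 points share libraries, depth and sponge groups, and the coefficients are descriptions. Among 8757 well measured genes, the gene most like each subunit by the same measure was Tsr1 for Gabra2 (r = 0.94), Fxyd6 for Gabra3 (r = 0.96), NM_001081013 for Gabra4 (r = 0.95) and Ppp3r1 for Gabra5 (r = 0.93). For the beta and delta subunits it was Trhde for Gabrb1 (r = 0.93), Ubald1 for Gabrb2 (r = 0.92) and Ncam1 for Gabrd (r = 0.91). Each of these coefficients is the highest of 8757 over 12 mice, so the search itself favours high values, and none was tested.

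The count files list 12 other GABA-A subunit genes. Gabra6, a subunit of cerebellar granule cells, was at 0 on its 2 entries in all 12 mice. A count of 0 allows up to 3 reads, or 0.123 to 0.272 CPM. Over all named genes, 57.9% of the 19044 genes with 1 entry had a mean above 10 reads, against 35.2% of the 4737 genes with 2 or more entries. How reads shared by several entries were counted is not given in the sources used here, so the levels of genes with several entries, Gabra6 among them, are uncertain, and 15 of 19 subunits, the 7 described here among them, have 1 entry.

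Of the 12 other subunits, 7 passed the limit on low counts in the miR-9 experiment and 6 in the miR-34 experiment. After miR-9sp their median log2 fold change was -0.05, after miR-34sp it was 0.02, and 0 passed the adjusted threshold by edgeR or DESeq2. At an unadjusted p under 0.05 by edgeR there was 1 gene after miR-9sp, Gabrr2, and after miR-34sp there were 2, among them Gabrq.

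The gamma subunit genes with 1 entry were Gabrg1 and Gabrg3. Gabrg1 had 53.7 ± 1.93 CPM in the miR-9sp mice and 57.7 ± 3.55 in the GFP Ctrl mice (SD, n = 3), with a log2 fold change of -0.10 ± 0.06 SE (edgeR adjusted p = 0.970). Its miR-34 values were 44.9 ± 5.01 and 47.6 ± 1.55, and the groups overlapped in both experiments. Gabrg3 was lower, at 9.15 ± 0.58 CPM in the miR-9sp mice and 8.83 ± 0.11 in the GFP Ctrl mice. The largest differences of the list were in genes with few reads and were picked out after their values were seen: Gabrr2 at -0.87 on the log2 scale after miR-9sp (edgeR adjusted p = 0.970) and Gabrq at -0.68 after miR-34sp (edgeR adjusted p = 0.720), with means of 14.9 and 19.9 reads.

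Of 21 genes for proteins that anchor and carry GABA-A receptors, 18 were tested in each experiment, 0 passed by edgeR or DESeq2, 1 had an unadjusted p under 0.05 by edgeR after miR-9sp (Nsf), and the median log2 fold change was -0.02 after miR-9sp and -0.002 after miR-34sp. The highest fold change among well read genes after miR-9sp was that of Nsf, an ATPase of membrane fusion that also takes part in receptor trafficking, at 2067 ± 102 CPM against 1901 ± 89.2 (SD, n = 3, edgeR adjusted p = 0.970). After miR-34sp it was that of Slitrk3, a postsynaptic adhesion protein of inhibitory synapses, at 174 ± 6.13 against 165 ± 4.87 (edgeR adjusted p = 0.831). Hap1, which links receptors to a transport motor, had the lowest fold change in both experiments, -0.13 ± 0.11 and -0.19 ± 0.13 on the log2 scale (SE).

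For GABA synthesis, transport and breakdown all 9 genes were tested and 0 passed by edgeR or DESeq2, with 1, Slc6a13, at an unadjusted p under 0.05 by edgeR after miR-34sp. After miR-34sp, 8 of 9 were lower, with a median log2 fold change of -0.10, and after miR-9sp 5 of 9 were lower, with a median of -0.01. Slc6a13, a transporter found in the meninges and liver, had 10.5 ± 1.90 CPM in the miR-34sp mice against 15.6 ± 7.27 in the GFP Ctrl mice (SD, n = 3), a log2 fold change of -0.59 ± 0.26 SE (edgeR adjusted p = 0.769). The choroid plexus markers were lower in the same miR-34sp mice, as given above, and their part in this value was not tested.

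The 6 genes of GABA-B receptors and their auxiliary proteins had a median log2 fold change of -0.01 in both experiments, and 0 passed by edgeR or DESeq2, with 1, Kctd12, at an unadjusted p under 0.05 by edgeR after miR-9sp. Kctd12, an auxiliary subunit of the GABA-B receptor, had 453 ± 31.2 CPM in the miR-9sp mice against 412 ± 21.3 in the GFP Ctrl mice (SD, n = 3, edgeR adjusted p = 0.970). Chloride transporters and channels set the chloride gradient that the receptors use. The list for them had 7 genes, among them the carbonic anhydrase genes Car2 and Car7, which encode neither a chloride transporter nor a channel. The median log2 fold change of the 7 genes was 0.03 after miR-9sp and -0.01 after miR-34sp. Of the 7, 0 passed by edgeR or DESeq2, also at an unadjusted p under 0.05. Slc12a2, the transporter that brings chloride into the cell, had 145 ± 9.70 CPM in the miR-9sp mice against 151 ± 6.68, and 143 ± 14.1 against 147 ± 25.0 in the miR-34 experiment (SD, n = 3).

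**Figure D5:**
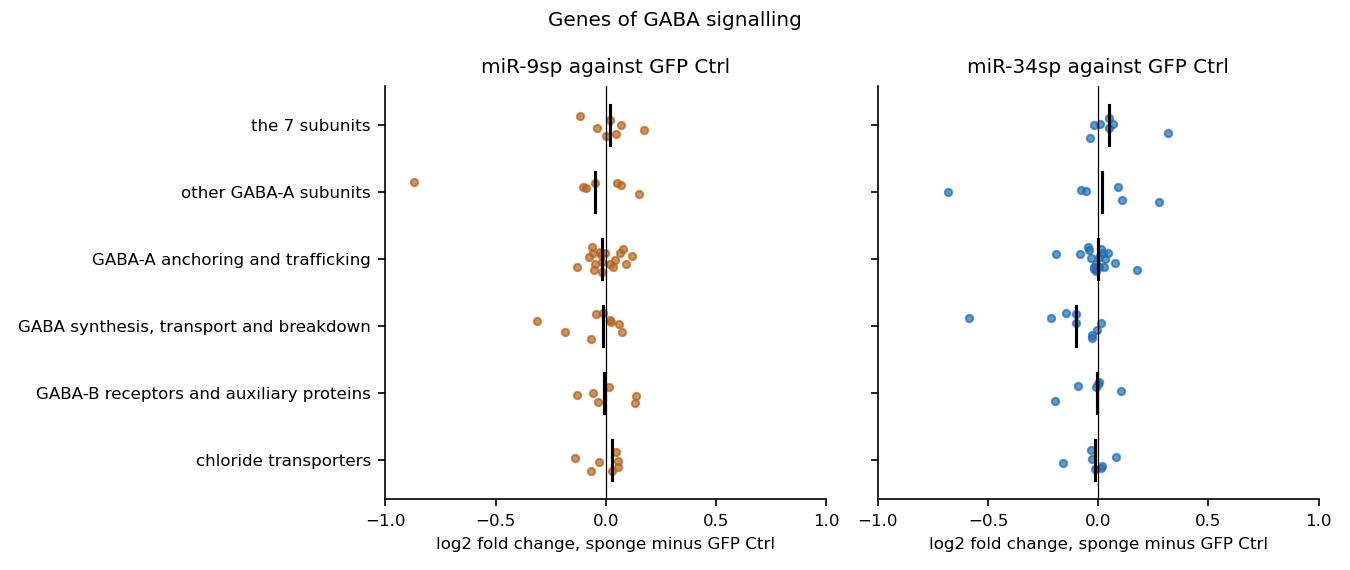
Log2 fold change, sponge minus GFP Ctrl (horizontal axis), of the genes tested in each list of GABA signalling, with 1 point per gene and a black bar at the median, for miR-9sp (left) and miR-34sp (right). The medians of the 7 subunits are 0.02 and 0.05 and that of GABA synthesis, transport and breakdown after miR-34sp is -0.10, with 0 genes past the adjusted threshold.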

How the data were processed

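RNA-seq of whole hippocampus was analysed in 12 mice, 3 per group. The authors aligned reads of 50 bases and deposited raw read counts per RefSeq entry for each mouse. STAR and mm10 appear in the submitters' processing notes, whereas the study's methods name mm9, and the counts carry no coordinates, so the choice did not enter here. Of the entries, 98.7% were joined to a gene symbol and the entries of each gene were summed. GFP Ctrl mice 16, 2 and 8 carry no experiment number in their labels and were placed in the miR-9 experiment by elimination. Each library came from 1 mouse.

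Each sponge was compared with the GFP Ctrl mice of its own experiment by edgeR 4.0.16 (R 4.3.3; TMM, quasi-likelihood test) on genes with a mean above 10 scaled reads, with Benjamini-Hochberg adjustment over all genes. Standard errors were derived from the log2 fold change and the F statistic of the edgeR test, which gives none itself. The 95% intervals were computed from these standard errors. DESeq2 1.42.0, other scalings, limits of 100 reads and no limit, the study's own criterion, a single model and leaving out each mouse were alternatives. Scripts were tested on simulated data. No pair of replicates held identical counts, and the chi-square per degree of freedom between replicates was 2.56 to 13.4. The members and lists were chosen with earlier results of these data known. All 7 genes were named with every mouse; of the other lists, the genes with the largest and smallest fold change above 100 reads were eligible. Some genes of the lists are not reported here.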

Additional observations from a re-analysis of the deposited data

How the results depend on the processing

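None of the 7 genes passed an adjusted p of 0.05 under any alternative that gives one. Whole-table counts moved more. In the miR-9 experiment, 0 entries and 0 genes were called. There were 2 and 2 with no limit on low counts, and 2 and 2 by DESeq2. The study's criterion as applied here, an unadjusted p with a limit on the fold change, gave 201 and 188. For both experiments the study itself reported fewer altered genes than its criterion gave here. In the miR-34 experiment, 4 entries and 8 genes were called, against 8 and 4 with DESeq2 size factors, 140 and 81 with no limit, 0 and 0 above 100 reads, 37 and 36 by DESeq2, 258 and 249 by the study's criterion and 0 and 0 in a model of all 12 mice, and 4 genes with total counts alone. For the difference between sponge effects, 0 genes were called, against 5 by DESeq2. The causes were not tested.

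Signs near 0 turned. Gabra2 after miR-9sp was 0.0011 with DESeq2 size factors, 0.0010 by DESeq2 and 0.0015 in the model of 12 mice. Gabrb2 after miR-9sp was -0.0027 with total counts alone and -0.0027 by the study's criterion, and the differences between effects were -0.0055 for Gabra2 and -0.0082 for Gabra5 with total counts alone. The share of Gabra2 in the miR-9 experiment differed by 0.19 percentage points with raw counts.

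Leaving out each mouse in turn gave 0 to 1 entries and 0 to 1 genes in the miR-9 experiment, 0 to 60 entries and 0 to 57 genes in the miR-34 experiment (57 without GFP Ctrl mouse 10) and 0 to 1 genes for the difference between effects. After miR-9sp the log2 fold change was -0.039 to 0.050 for Gabra2, -0.18 to -0.042 for Gabra3, -0.014 to 0.14 for Gabra5, -0.036 to 0.091 for Gabrb1 and -0.014 to 0.070 for Gabrb2, and Gabrd stayed at 0.12 to 0.23. After miR-34sp it was -0.054 to 0.014 for Gabra2, -0.046 to 0.076 for Gabra3 and -0.073 to 0.014 for Gabrb1, and Gabrd stayed at 0.22 to 0.51. The differences between effects ran from -0.014 to 0.069 for Gabra2, -0.063 to 0.092 for Gabra5 and -0.094 to 0.0044 for Gabrb2. Shares differed by -0.76 to 0.51 points for Gabra2 and 0.39 to 2.18 points for Gabra5 in the miR-9 experiment and -0.23 to 0.22 points for Gabra3 in the miR-34 experiment.

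No paired analysis was possible because sponge and GFP Ctrl mice of an experiment share no number in the labels. With 3 mice a group, the data do not exclude changes of any size inside the intervals given above. Gabrd, with the fewest reads, had the widest interval in the miR-34 experiment.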
